A study of Mus musculus with 4 samples.

Results

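The Egr and Nr4a early response factors were examined here as a family of 9 genes: the zinc finger factors Egr1, Egr2, Egr3 and Egr4, the Egr co-repressors Nab1 and Nab2, and the orphan nuclear receptors Nr4a1, Nr4a2 and Nr4a3. Members were chosen by name, as every probe set whose only gene symbol in the platform annotation is one of these 9, out of 12393 genes with such a probe set. They hold 13 of the table's 22626 probe sets: Egr2, Nab1, Nr4a2 and Nr4a3 have 2 each and the other 5 genes have 1 each. RNA came from bone marrow-derived mast cells of 8 to 12 week-old mice, cultured for 4 to 6 weeks with interleukin-3 at 5 ng/ml, and was measured on Affymetrix mouse 430A arrays. The genotypes were wild-type (Pac1+/+) and Pac1-/-, which lacks the dual-specificity MAP kinase phosphatase Pac1, the product of Dusp2. Cells of both genotypes were loaded with IgE against dinitrophenyl (100 ng/ml, 18 h) and activated through the IgE receptor for 2 h with the antigen DNP-HSA (20 ng/ml). Each genotype had 2 independent cultures, replicates 1 and 2, with 1 array per culture. Unstimulated cells are not analysed here, so levels after activation can be given, and induction cannot.

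Egr proteins are transcription factors with zinc fingers whose genes are switched on within minutes of receptor signalling through the ERK MAP kinases, the serum response factor SRF and its ternary complex partners. Nab1 and Nab2 bind Egr1, Egr2 and Egr3 and repress their activity, and Nab2 is itself an Egr target, which closes a feedback loop. The Nr4a receptors act without a known natural ligand and are regulated mainly by how much is made, downstream of calcium, MEF2 and CREB. In mast cells, antigen cross-linking of the IgE receptor feeds both routes, and Pac1 is a phosphatase of the MAP kinases on the first.

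On these arrays the Egr1 and Nab transcripts had signal well above 100 on every array, Nr4a1 was at a modest level, Egr2 and Nr4a2 differed several-fold between the replicate numbers of both genotypes, and Egr3, Egr4 and Nr4a3 were dim. No probe set of the family passed the test for a genotype difference. The test covered probe sets whose normalised intensity averaged 100 or more, which kept 8 of the 13 probe sets and 6 of the 9 genes. Of these 8, 0 had an adjusted p under 0.05 and 0 an unadjusted p under 0.05 (limma, Benjamini-Hochberg over the table), against 0% and 3.38% of the 7770 probe sets tested. In Pac1-/- cells 4 of the 8 were higher and 4 lower, and their median log2 difference was -0.06, against 0.06 over all tested probe sets. The lowest adjusted p in the whole table was 0.866.

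Dusp2, the gene whose product the Pac1-/- cells lack, read 167 and 109 in replicate 1 of wild-type and Pac1-/- cells, and 90.7 and 75.5 in replicate 2. Its log2 difference was -0.44 ± 0.51 (SE, n = 2 per genotype; limma adjusted p = 0.888), and 0.0030 without wild-type replicate 1. Whether its probes lie in the deleted part is not stated in the sources used here, so it does not check the labels. The arrays were not equally comparable. They grouped by replicate number rather than by genotype: log2 intensities of tested probe sets correlated at 0.885 and 0.750 within replicates 1 and 2, and at 0.437 and 0.468 within wild-type and Pac1-/- (across probe sets, which are not replicates). The Y-linked gene Eif2s3y, named after its values were seen, was at 219 and 275 in replicate 1 cultures but at 0.95 and 2.1 in those of replicate 2. The X-linked gene Xist, named likewise, ran the other way. It read 47.7 (wild-type) and 41.7 (Pac1-/-) in replicate 1 but 2952 and 984 in replicate 2. Donor sex is not among the sample labels used here. Median deposited intensity was 24.5 on Pac1-/- replicate 2 and 40.6 to 49.3 on the other arrays. The 3' to 5' ratio of the Gapdh control probe sets was 191 on Pac1-/- replicate 2 and 0.80 to 1.36 on the others, and that of beta-actin was higher in Pac1-/- within both replicate numbers, 293 against 109 and 54.8 against 1.58. Of 13 mast cell markers, 11 were at 100 or more on all 4 arrays. Ms4a2, the beta chain of the IgE receptor, read 143 (wild-type) and 41.9 (Pac1-/-) in replicate 1 but 3261 and 1502 in replicate 2, and the tryptase gene Tpsb2 read 476 on Pac1-/- replicate 2 against 5838 to 7259 on the others. Values without Pac1-/- replicate 2 are therefore given for each tested member, and differences within each replicate number stand beside the pooled ones. With an array left out the genotypes no longer hold the same replicate numbers, so part of the replicate difference enters such a value. The part of these array differences in any result was not tested.

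**Figure D1:**
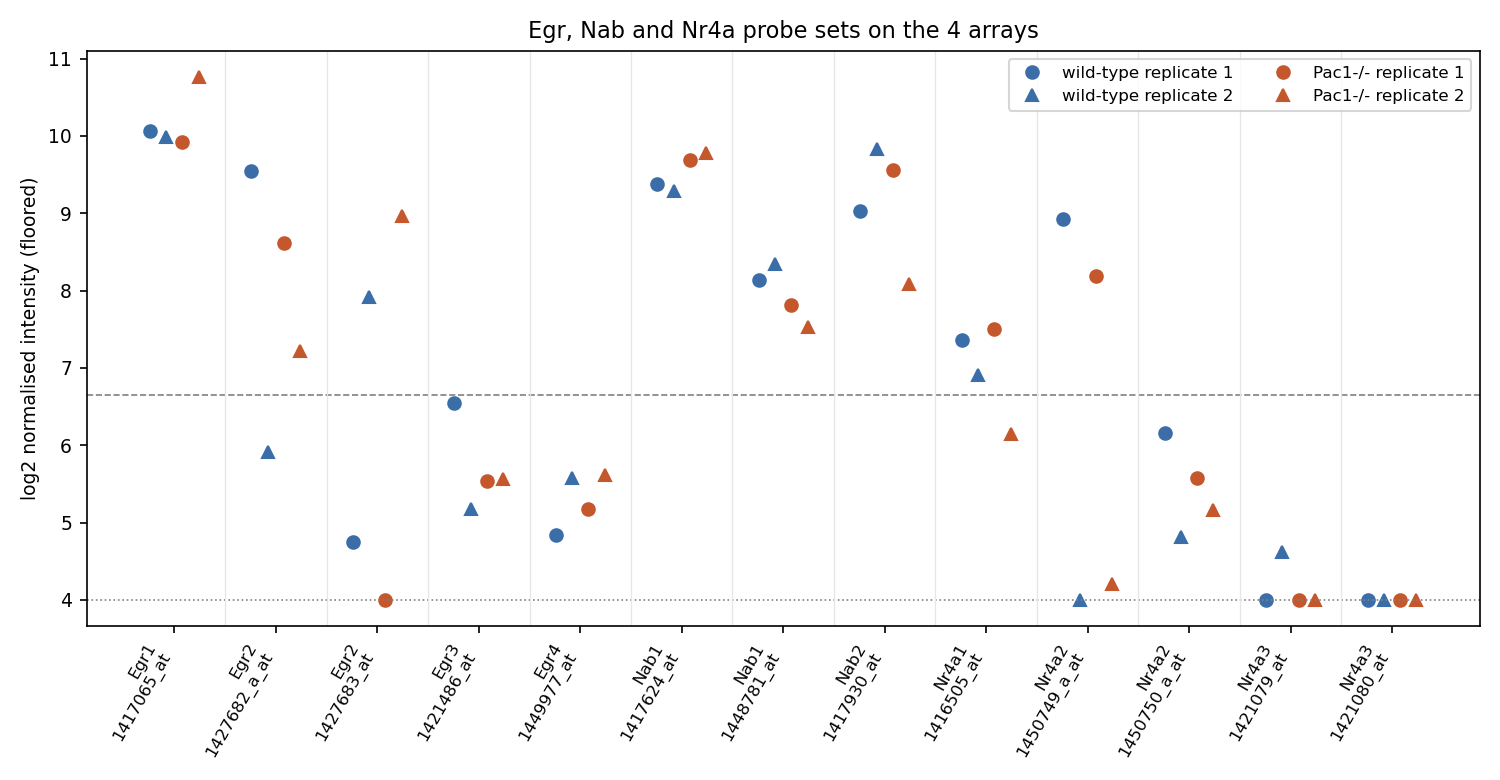
Log2 normalised intensity (values under 16 set to 16) of the 13 probe sets on the 4 arrays; blue is wild-type, orange Pac1-/-, circles replicate 1 and triangles replicate 2. The dashed line marks an intensity of 100 and the dotted line the floor of 16. Egr1 and both Nab1 probe sets sit above the dashed line on all arrays, while Egr2 1427683_at and Nr4a2 1450749_a_at split by symbol shape, not by colour.

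Egr1 is the prototype of the family and drives early response genes from GC-rich sites. For its probe set, 1417065_at, normalised intensity was 1072 in wild-type replicate 1, 1012 in wild-type replicate 2, 970 in Pac1-/- replicate 1 and 1737 in Pac1-/- replicate 2. The high value was that of Pac1-/- replicate 2, and the other 3 arrays lay close together, with Pac1-/- replicate 1 below both wild-type arrays, so the genotypes overlapped. On the log2 scale Egr1 was 0.32 ± 0.46 higher in Pac1-/- cells (moderated SE of limma, n = 2 per genotype, as throughout). Its 95% confidence interval was -1.003 to 1.64, at a limma adjusted p = 0.913. Within replicate 1 the difference, Pac1-/- minus wild-type, was -0.14, within replicate 2 it was 0.78, and without Pac1-/- replicate 2 it was -0.10. In size, 33.5% of tested probe sets had a smaller genotype difference.

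Egr2 (Krox20) shares the zinc finger region of Egr1 and is known in lymphocytes for limiting activation. It was measured by 2 probe sets that the platform annotation ties to the same source sequence. Probe set 1427682_a_at, whose suffix marks probes shared by transcripts of a gene, read 749 and 391 on the replicate 1 arrays of wild-type and Pac1-/- cells, and 60.2 and 149 on their replicate 2 arrays. Both replicate 1 arrays were high and both replicate 2 arrays low. Probe set 1427683_at read 26.8 and 2.4 on the former pair of arrays and 241 and 499 on the latter pair, in the same order of genotypes. Here the replicate 1 arrays were low and the replicate 2 arrays high, the reverse of the other probe set. The log2 difference of replicate 2 minus replicate 1, averaged over the genotypes, was -2.51 for the former and 4.07 for the latter, a size that exceeded 87.8% and 94.5% of tested probe sets respectively. The latter has 1 array at the floor, so its size and rank depend on that floor. The sum of squares over the 4 log2 values of Egr2 lay to 83.0% and 95.2% between the replicate numbers, and to 0.45% and 0.13% between the genotypes. Signal of the Egr2 gene thus cannot be given as 1 level per array. Opposite shifts of this kind were uncommon: among 1468 genes with at least 2 tested probe sets, the 2 brightest split by replicate number in opposite directions in 113 genes (7.7%), and with both shifts of at least 2 log2 units, a bound chosen after the values of Egr2 were seen, in 13 genes (0.886%).

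The genotype differences of Egr2 were small beside these shifts. For 1427682_a_at the log2 difference was 0.19 ± 1.47 (SE; 95% confidence interval -4.03 to 4.40; limma adjusted p = 0.992), and for 1427683_at 0.15 ± 2.19 (interval -6.12 to 6.43; limma adjusted p = 0.995). The reported fit has no replicate term, so the replicate shifts enter these SEs and intervals. With the replicate block the SEs were 0.62 and 0.57, at limma adjusted p = 0.917 and 0.927. Within a replicate number the 2 probe sets had the same sign: Pac1-/- minus wild-type was -0.94 and -0.74 within replicate 1, and 1.31 and 1.05 within replicate 2. On the replicate 1 arrays 1427683_at was under 100 in both genotypes and at the floor in Pac1-/-, so its difference there has no exact size. A like order within replicate numbers was seen for Egr1, at -0.14 and 0.78. With 1 pair of arrays per replicate number, these opposite signs have no test. Without Pac1-/- replicate 2 the Egr2 differences were 0.88 for 1427682_a_at and -2.33 for 1427683_at. Both set Pac1-/- replicate 1 against both wild-type replicates, so the replicate shifts of these probe sets enter them.

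The Egr2 gene has 5 promoter windows in the RefSeq table (GRCm38.p6; 250 bases before to 50 after a start site), of which 4 hold a CArG box, the binding motif of SRF. The box is present in 1.63% of all 32851 windows in the table. Window 3 is shown because it holds a CArG box between 2 copies of TGACG, the short form of the cAMP response element, on opposite strands; the matches are in capitals, and the box starts 72 bases before the start site.
Egr2, chr10:67537619-67537918, plus strand: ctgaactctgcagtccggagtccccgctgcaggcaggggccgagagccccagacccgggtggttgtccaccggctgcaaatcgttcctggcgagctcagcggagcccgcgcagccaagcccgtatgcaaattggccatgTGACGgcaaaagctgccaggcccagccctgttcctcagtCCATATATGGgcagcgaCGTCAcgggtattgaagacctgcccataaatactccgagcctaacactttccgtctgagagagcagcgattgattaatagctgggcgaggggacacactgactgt
Windows 3, 4 and 5 overlap and share this box, and a match describes the letters only.

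Egr3 and Egr4, related factors of immune and nerve cells, were dim. As deposited, Egr3 1421486_at read 104 in wild-type replicate 1, 43.2 in wild-type replicate 2, 47.5 in Pac1-/- replicate 1 and 29.3 in Pac1-/- replicate 2. It was above 100 on wild-type replicate 1 alone. Between the replicate 2 arrays the Egr3 order depended on the scaling, since after quantile normalisation wild-type read 36.3 and Pac1-/- 47.5. As deposited, Egr4 1449977_at was at 35.7 and 55.3 in wild-type cells (replicate 1, then replicate 2) and at 35.7 and 30.5 in Pac1-/- cells, under 100 on every array. For Egr4 too the replicate 2 order turned with the scaling, to 47.7 in wild-type and 49.1 in Pac1-/- cells after normalisation. Neither gene was tested, and no size is given for their differences.

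Of the co-repressors, Nab1 differed little between cultures of a genotype. Nab1 1417624_at read 666 and 623 in wild-type cells (replicate 1, then replicate 2) and 827 and 879 in Pac1-/- cells. Both Pac1-/- arrays lay above both wild-type arrays. Nab1 1448781_at read 281 and 324 in wild-type and 224 and 184 in Pac1-/- cells, with both Pac1-/- arrays below both wild-type arrays. The 2 probe sets of Nab1 therefore separated the genotypes in opposite directions, as the 2 brightest probe sets did in 84 of the 1468 genes (5.72%). The log2 differences were 0.40 ± 0.34 (SE; 95% confidence interval -0.58 to 1.39; limma adjusted p = 0.873) and -0.57 ± 0.36 (interval -1.61 to 0.48; limma adjusted p = 0.866), so neither passed. Within replicates 1 and 2 they were 0.31 and 0.50 for the former, and -0.32 and -0.81 for the latter, and without Pac1-/- replicate 2 they were 0.36 and -0.42. These were the 2 tested probe sets of the family whose genotypes did not overlap; among all probe sets tested, 37.7% had groups that did not overlap. No direction for Nab1 can be given.

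Nab2 1417930_at, the feedback member, read 522 and 756 in replicate 1 of wild-type and Pac1-/- cells, and 907 and 271 in replicate 2. Pac1-/- replicate 2 was the lowest and wild-type replicate 2 the highest, and the genotypes overlapped. The log2 difference was -0.60 ± 0.71 (SE; 95% confidence interval -2.63 to 1.42; limma adjusted p = 0.888). Within replicates 1 and 2 it was 0.54 and -1.74, and it was 0.14 without Pac1-/- replicate 2. On that array Nab2 was the lowest of its 4 values and Egr1 the highest of its 4.

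Nab1 has 1 promoter window in the RefSeq table, shown because it holds 3 matches to the 9-base Egr site, 2 to GCGTGGGCG and 1 to GCGGGGGCG. These forms are present in 0.612% and 2.91% of all windows of that length, whatever their base content, while G and C make up 81.7% of this window. Capitals mark the Egr sites, searched on both strands, and 1 copy of the short element TGACG, read here on the minus strand of the gene.
Nab1, chr1:52500399-52500698, minus strand: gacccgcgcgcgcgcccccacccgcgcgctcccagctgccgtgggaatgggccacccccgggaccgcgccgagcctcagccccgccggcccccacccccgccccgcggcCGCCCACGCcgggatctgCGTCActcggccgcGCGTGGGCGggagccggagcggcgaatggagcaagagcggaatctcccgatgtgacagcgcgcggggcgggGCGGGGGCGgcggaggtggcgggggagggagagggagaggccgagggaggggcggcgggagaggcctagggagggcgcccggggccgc
The window of Nab2 holds none of the motifs searched, which says only that these letters are not in it.

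**Figure D2:**
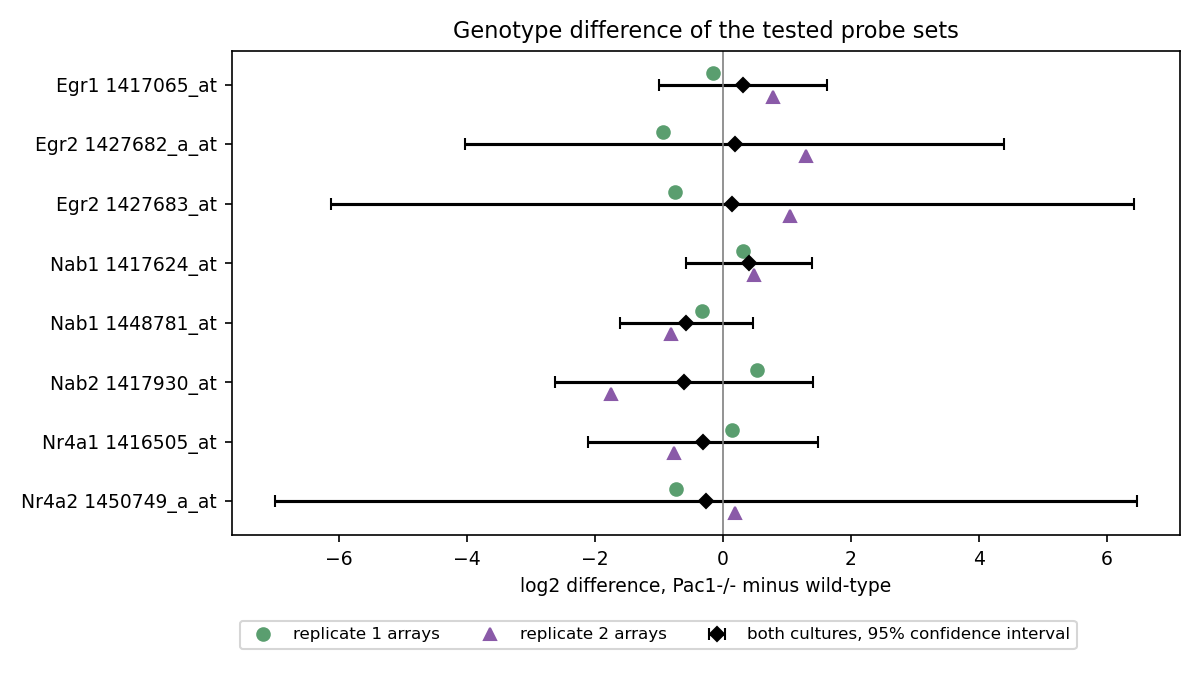
Log2 difference, Pac1-/- minus wild-type, of the 8 tested probe sets: diamonds with bars are the limma estimate and its 95% confidence interval, circles the replicate 1 arrays and triangles the replicate 2 arrays. All 8 intervals include 0, and the circle and triangle lie on the same side of 0 only for the 2 Nab1 probe sets.

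Nr4a1 (Nur77) is the receptor of the family best known as an early reporter of antigen receptor signalling. Its probe set 1416505_at read 164 and 182 in replicate 1 of wild-type and Pac1-/- cells, and 121 and 70.8 in replicate 2. Both replicate 1 arrays were above both replicate 2 arrays, and the genotypes overlapped. The log2 difference was -0.31 ± 0.63 (SE; 95% confidence interval -2.10 to 1.49; limma adjusted p = 0.948), with 0.15 within replicate 1 and -0.77 within replicate 2. Without Pac1-/- replicate 2 it was 0.37.

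Nr4a2 (Nurr1), known also as a factor of dopamine neurons, also differed widely between the replicate numbers. Its probe set 1450749_a_at read 484 and 291 in replicate 1 of wild-type and Pac1-/- cells, and 12.2 and 18.4 in replicate 2. Signal was clear on both replicate 1 arrays and at or next to the floor of 16 on both replicate 2 arrays, in either genotype. The replicate 2 minus replicate 1 difference on the floored log2 scale was -4.92 in wild-type and -3.99 in Pac1-/- cells, and the size of its mean, with 1 array at the floor, was above that of 95.7% of tested probe sets. Of its sum of squares 98.6% lay between the replicate numbers. The second Nr4a2 probe set, 1450750_a_at, was dimmer but ordered alike by replicate number, with 71.1 and 28.1 in wild-type and 47.9 and 35.7 in Pac1-/- cells. The genotype difference of 1450749_a_at was -0.27 ± 2.35 (SE; 95% confidence interval -7.00 to 6.47; limma adjusted p = 0.992). Between the replicate 1 arrays, where the gene was measurable, it was -0.73. Without Pac1-/- replicate 2 it was 1.73, but that fit keeps wild-type replicate 2 at the floor, so the replicate difference enters it.

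Nr4a3 (Nor1) was near the bottom of the range on every array. As deposited, probe set 1421079_at read 18.3 and 29.8 in wild-type cells (replicate 1, then replicate 2) and 4.0 and 6.2 in Pac1-/- cells. The other, 1421080_at, read 13.9 and 17.5, then 10.4 and 6.0. On the log2 scale the former was at the floor on 3 arrays and the latter on all 4 arrays, so no fold is given. The dim signal of these probes after 2 h does not show that Nr4a3 is absent.

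Each of the 3 Nr4a genes has 1 promoter window in the RefSeq table, and each holds 4 copies of TGACG over both strands. One copy or more is present in 20.8% of all windows and 4 or more in 0.231%, a number chosen after these windows were seen. These shares are over windows of any base content, while G and C make up 72.3% of the Nr4a1 window, 81.7% of Nr4a2 and 64.7% of Nr4a3. The windows of the 2 members that were tested are shown, with the matches in capitals; in Nr4a1 the capitals also mark 1 Egr site, GCGGGGGCG, on the minus strand.
Nr4a1, chr15:101266596-101266895, plus strand: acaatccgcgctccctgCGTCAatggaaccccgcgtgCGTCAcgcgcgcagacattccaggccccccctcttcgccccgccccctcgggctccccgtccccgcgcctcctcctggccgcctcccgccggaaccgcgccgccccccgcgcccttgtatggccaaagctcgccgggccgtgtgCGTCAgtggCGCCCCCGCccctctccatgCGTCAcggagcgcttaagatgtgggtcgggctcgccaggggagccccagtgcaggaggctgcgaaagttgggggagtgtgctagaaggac
Nr4a2, chr2:57123954-57124253, minus strand: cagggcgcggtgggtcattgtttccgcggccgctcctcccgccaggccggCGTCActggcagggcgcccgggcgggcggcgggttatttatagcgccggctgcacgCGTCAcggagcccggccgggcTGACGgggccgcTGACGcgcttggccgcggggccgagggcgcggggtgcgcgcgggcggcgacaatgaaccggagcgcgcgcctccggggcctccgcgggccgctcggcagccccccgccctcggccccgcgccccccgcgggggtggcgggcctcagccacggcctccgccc
Egr1 and Egr3 have no entry in the table and were not searched. No window of the 7 members with an entry holds the full element TGACGTCA (1.79% of all windows) or the Nr4a monomer site AAAGGTCA (1.51%), and among these 7 only Egr2 has a CArG box. Egr4 holds 2 copies of TGACG.

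**Figure D3:**
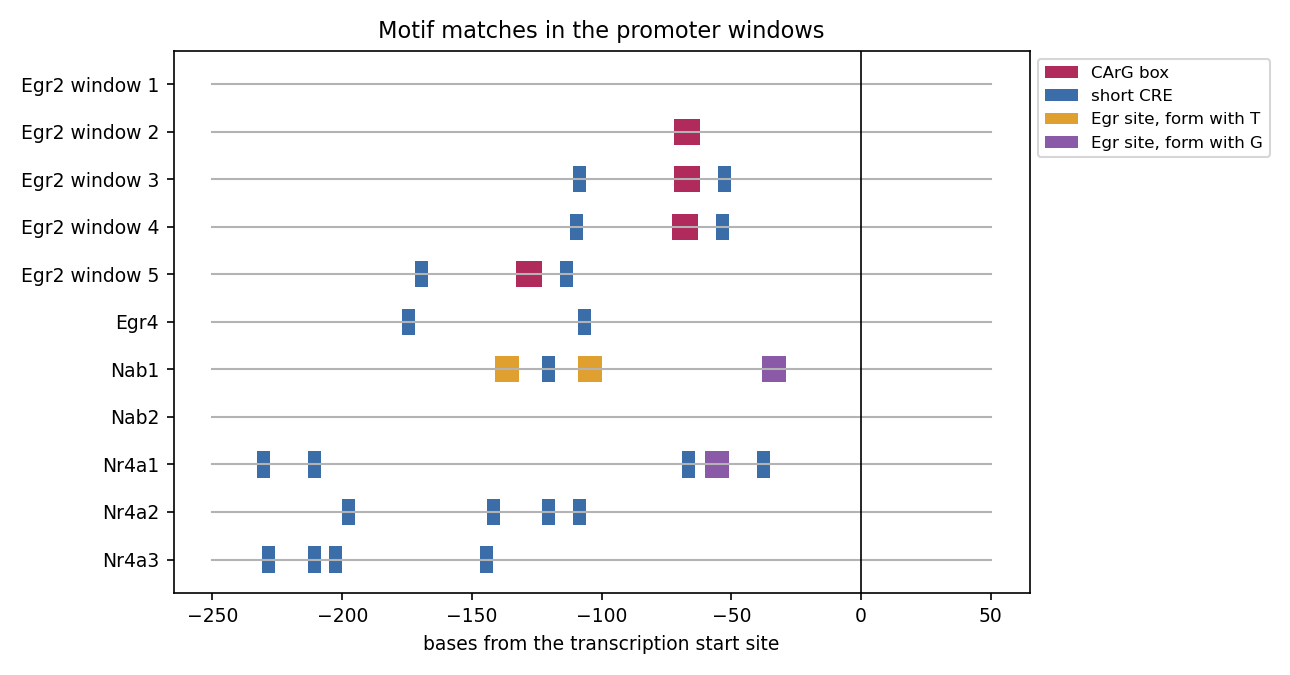
Motif matches, as coloured boxes drawn to scale, in the 11 promoter windows of 7 members, against distance in bases from the start site, covering 250 bases before to 50 after it. CArG boxes are present in 4 of the 5 Egr2 windows, and Nr4a1, Nr4a2 and Nr4a3 hold 4 short CRE matches each.

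Among the tested members, the mean log2 difference between replicate numbers was larger in size than that between genotypes for Egr1 (0.38 against 0.32 in size), Egr2, Nr4a1 and Nr4a2, and smaller for Nab1 and Nab2. Of the 8 tested probe sets, 4 had replicate numbers that did not overlap, 3 of them lower and 1 higher on replicate 2, against 41.4% of tested probe sets. Over all tested probe sets 71.9% of the sum of squares lay between replicate numbers and 17.9% between genotypes, while the median absolute difference was 0.46 between replicate numbers and 0.50 between genotypes. Among 11 macrophage markers, Cd68 read 7512 (wild-type) and 5638 (Pac1-/-) in replicate 1, then 118 and 121 in replicate 2, so the list's summed intensity was 8017 and 6137, then 627 and 645. The list did not move as a whole: Adgre1 read 248, 222, 250 and 217 in the same order, Csf1r 54.3, 44.7, 102 and 57.5, and 7 of the 11, C1qa among them, were below 100 on all arrays. Of 7 stromal markers, Kitl, the gene of the Kit ligand, read 3175 and 1787 in replicate 1 against 59.6 and 34.8 in replicate 2, and 5 were below 100 on all arrays. The sample labels give at least 98% of cells positive for Kit and the IgE receptor in every culture. In these bulk RNA samples a smaller share of cells and less RNA per cell cannot be told apart. The part of these markers in the levels of Egr2 and Nr4a2 was not tested.

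**Figure D4:**
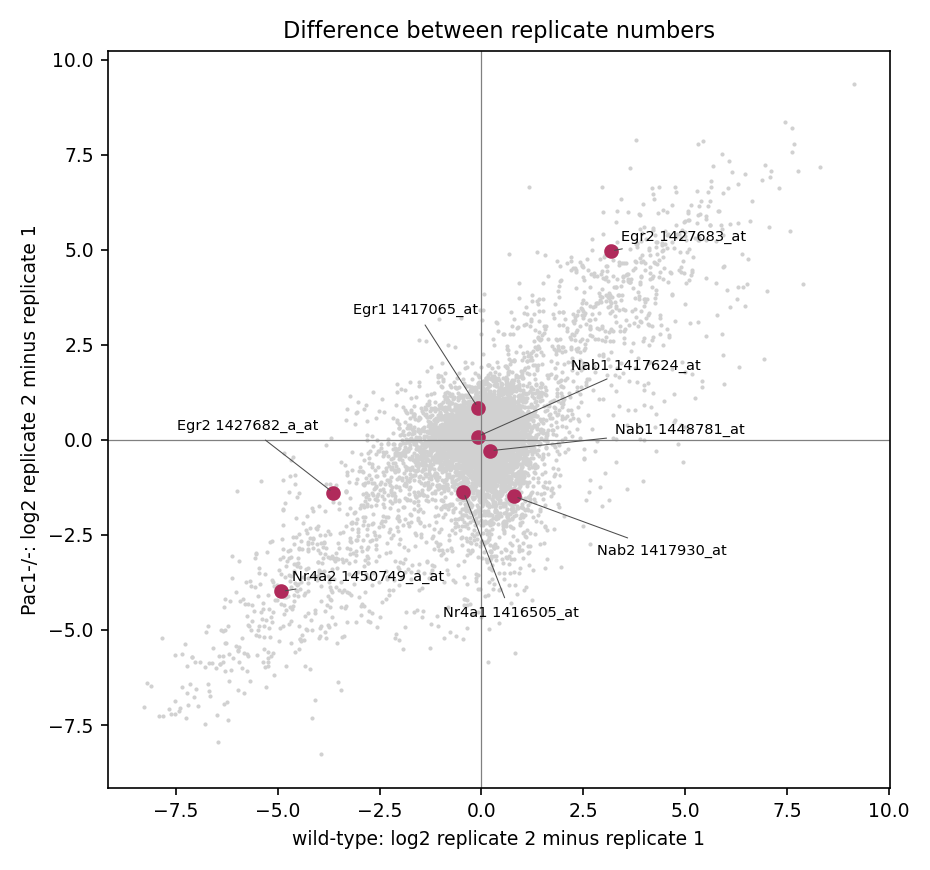
Log2 difference of replicate 2 minus replicate 1 in wild-type (horizontal) against Pac1-/- (vertical) cells; grey points are the 7770 tested probe sets and red points the 8 tested members. Nr4a2 1450749_a_at and Egr2 1427682_a_at lie at the lower left and Egr2 1427683_at at the upper right, while Egr1 and Nab1 lie near the centre.

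Genes with the profile most like that of a member were sought by the root mean square difference between log2 values centred over the 4 arrays, among 3284 or 3285 genes at 100 or more on all arrays. For Egr1 the nearest were Itfg1 (0.012), the mitochondrial superoxide dismutase Sod2 (0.033) and the RNA-binding protein gene Hnrnpa2b1 (0.034), and 355 genes lay within 0.2, so this profile was a common one. For Nr4a1 they were the histone gene H2aj (0.047), the Rab GTPase gene Rab1b (0.074) and the cold-inducible RNA-binding protein gene Cirbp (0.084), with 26 genes within 0.2. For Egr2 1427682_a_at they were the phosphoinositide kinase gene Pip5k1b (0.26), the proteasome assembly chaperone gene Psmg1 (0.31) and the Ras-like GTPase gene Ralb (0.36), with 0 genes within 0.2. For Nr4a3, at the floor on 3 arrays, the nearest were the proteasome subunit gene Psmd4 (0.023) and the kinase genes Slk (0.055) and Cmpk1 (0.060), with 192 genes within 0.2, and such a list describes 1 value above the floor.

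The members were next set beside the genes that act on, with or after them, each gene by its brightest probe set. No gene of the 5 lists passed the adjusted test, and 0 of 4998 tested genes did. Of the 26 other immediate-early genes, 14 were tested, with 4 higher and 10 lower in Pac1-/- cells and a median log2 difference of -0.29 (-0.37 and 0.39 within replicates 1 and 2), against 0.10 over all tested genes. The median's direction was not stable: it was 0.34 without wild-type replicate 1, 0.03 without Pac1-/- replicate 2 and 0.36 with arrays centred on their medians. Those with the lowest p were the factors Klf6 (1.06 ± 0.42, SE, n = 2 per genotype), Junb (-2.22 ± 0.88) and Klf10 (1.25 ± 0.81), at limma adjusted p = 0.866 each. In this list too some genes separated by replicate number: Ier5 read 3485 and 2634 in replicate 1 against 46.7 and 2.5 in replicate 2, and Myc 4569 and 3269, then 240 and 493. The anti-proliferative gene Btg1 was ordered the other way, at 25.6 and 18.7 and then 1809 and 2450. Ier5, Myc and Btg1 were chosen after their values were seen, and 8 of the 14 genes had replicate numbers that did not overlap, 6 of them lower on replicate 2, against 40.6% of all tested genes, with 17.7% lower.

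Upstream of the Egr genes, 6 of 16 genes of the ERK and SRF route were tested, with 5 higher and 1 lower and a median of 0.46 (0.50 and 0.26 within replicates 1 and 2), which turned to -0.13 without wild-type replicate 1. The ribosomal S6 kinase gene Rps6ka3 was at 1.05 ± 0.42 (SE, n = 2 per genotype), the ternary complex factor Elk3 at 0.63 ± 0.43 and the ERK kinase gene Map2k2 at 0.49 ± 0.55, which was -0.09 without wild-type replicate 1. The SRF gene itself, Srf, named after its values were seen, read 102 and 106 in replicate 1 against 184 and 255 in replicate 2, higher on both replicate 2 arrays. Upstream of the Nr4a genes, 12 of 24 calcium, MEF2 and CREB route genes were tested, with 8 higher and 4 lower and a median of 0.20. The MEF2 repressor Hdac7 was at -1.07 ± 0.40, the calcium-dependent factor Nfatc3 at 0.81 ± 0.34 and the calcineurin subunit Ppp3ca at 0.71 ± 0.36. None of these 3 passed at the unadjusted level; their genotypes did not overlap, as in 5 of the 12 genes and in 37.6% of all tested genes.

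Downstream, 10 of 18 genes described as Egr targets were tested, with 2 higher and 8 lower and a median of -0.65 (-0.36 and -1.16 within replicates 1 and 2). The cytokine signalling inhibitor Socs1 (-3.01 ± 0.86, SE, n = 2 per genotype) passed the unadjusted test, as 2.92% of all tested genes did, and the cytokine gene Tgfb1 (-3.24 ± 1.14) and Junb did not; all had a limma adjusted p of 0.866. Socs1 read 279 and 265 in wild-type cells against 70.9 and 7.0 in Pac1-/- cells, the last below the floor. With no intensity minimum Socs1 did not pass the unadjusted test (limma unadjusted p = 0.069). Tgfb1 was at 317 and 1971 in wild-type cultures, above the 135 and 51.9 of Pac1-/- cultures. Of the 2 higher genes, Plau, named after its values were seen, was at 2.74 ± 1.18. It read 32.9 and 2.3 in wild-type cultures, the latter below the floor, and 419 and 56.4 in Pac1-/- cultures. Junb is also among the other immediate-early genes. Without Pac1-/- replicate 2 the median of the list was -0.07, Socs1 was at -1.94, Tgfb1 at -2.55 and Junb at -1.29. Of 17 Nr4a partners and genes described as Nr4a-regulated, 5 were tested, with 2 higher and 3 lower and a median of -0.93, which was 0.53 without Pac1-/- replicate 2. The survival gene Bcl2 (-1.79 ± 0.62) passed the unadjusted test in the reported fit, and was at -1.18 without Pac1-/- replicate 2. With all arrays Bcl2 did not pass on the deposited values (limma unadjusted p = 0.069) or with median centring (limma unadjusted p = 0.115). Nor did it with no intensity minimum (limma unadjusted p = 0.083) or a minimum of 200 (limma unadjusted p = 0.051). It passed with a floor of 64, an intensity trend or the replicate block. Its pro-death relative Bcl2l11 (0.94 ± 0.47) and the kinase gene Stk11 (-0.93 ± 0.50) did not pass in the reported fit. These directions are those of the lists in 2 cultures per genotype, and none is a tested property of a list.

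**Figure D5:**
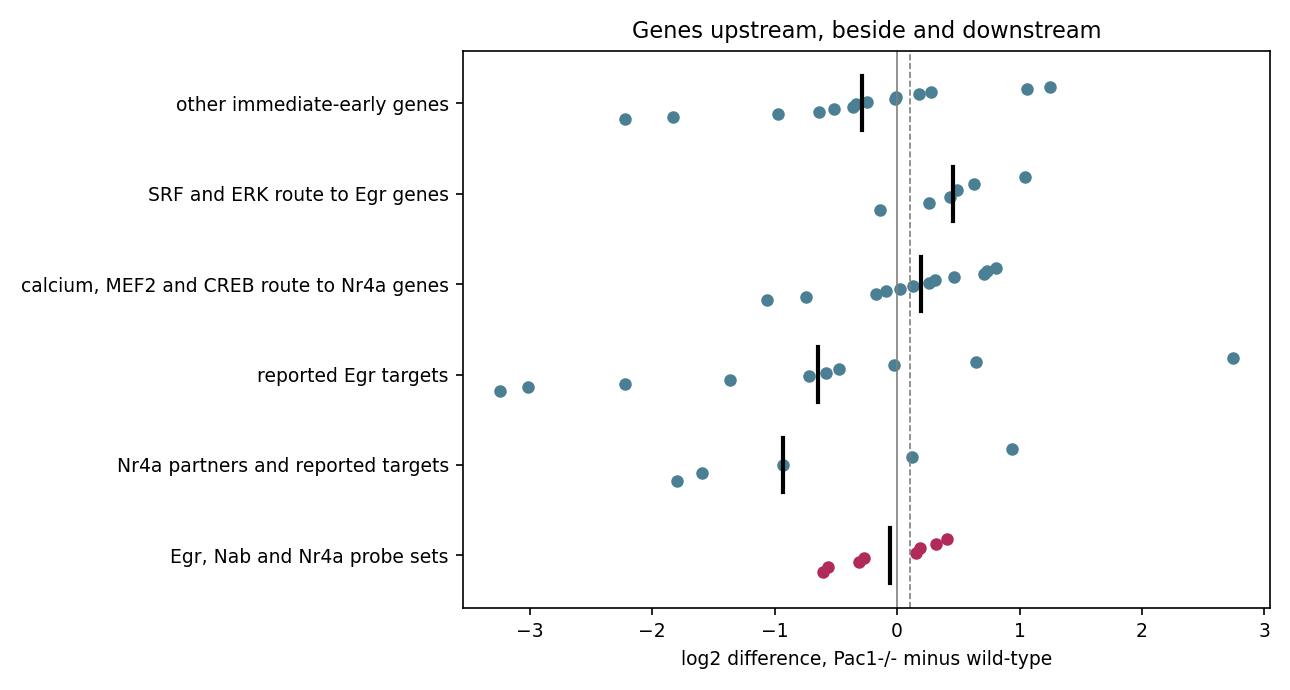
Log2 difference, Pac1-/- minus wild-type, of each tested gene (points, blue) of the 5 pathway lists and of the 8 tested Egr, Nab and Nr4a probe sets (red); black bars are medians and the dashed line is the median of all tested genes, 0.10. The members lie between -0.60 and 0.40, inside the range of every list but that of the ERK and SRF route, whose lowest gene is at -0.14.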

How the data were processed

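Total RNA of 4 mast cell cultures was hybridised to 1 array each. The values that the authors deposited are intensities on a linear scale, and MAS5 is the tool named in the submitters' processing notes. All 4 arrays had a trimmed mean near 150.1, so they had been scaled. The series' design text describes RMA; no RMA values are analysed here. Of 22690 probe sets, 64 controls were left out; 20380 of the rest have 1 symbol, 691 several and 1555 none. Symbols follow the platform annotation, updated by gene ID through RefSeq.

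The intensities were quantile normalised, floored at 16 and put on a log2 scale, and the 7770 probe sets with a mean of at least 100 were fitted with limma 3.58.1 in R 4.3.3 (lmFit, then eBayes; a single genotype term; two-sided; threshold 0.05 after Benjamini-Hochberg adjustment). The fit was tested on simulated data. A value near the floor makes a log2 difference approximate. With 2 arrays per genotype the smallest exact permutation p is 0.3333, so no such test was run. The number of arrays limits the precision. The SE and p-values use limma's moderated variance, with 2 residual and 1.7 prior degrees of freedom. It weighs a probe set's own spread between these cultures with that of all probe sets in the fit. Lists were described by counts and medians, with no set test. Named genes were all members, the 3 lowest p per list, the 3 nearest profiles for each of Egr1, Egr2, Nr4a1 and Nr4a3, Dusp2 and markers. Srf, Eif2s3y, Xist, Ier5, Myc, Btg1 and Plau lie outside that rule and were picked with their values in view. The members and lists were chosen with earlier results of these data known. A planned comparison of protein sequences was not run. Alternatives were the deposited values, median centring, other minimums, a floor of 64, an intensity trend, the replicate block, each array left out, and the mean of a gene's probe sets. Figures used matplotlib 3.10.9 under Python 3.11.15. Motifs were searched in RefSeq promoter windows on both strands; TGACG lies within TGACGTCA.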

Additional observations from a re-analysis of the deposited data

How the results depend on the processing

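Under every alternative run, 0 tested probe sets and 0 of the family passed limma's adjusted test. Probe sets with an unadjusted p under 0.05 numbered 263, against 1762 with no intensity minimum, 110 with a minimum of 200 and 899 with the replicate block, and 79 to 408 with an array left out (79 without wild-type replicate 2, 86 without Pac1-/- replicate 2, 408 without Pac1-/- replicate 1). Of the family 0 passed at that level in the reported fit, and 1 did with no intensity minimum, Nab1 1417624_at (unadjusted p = 0.0131 from limma across all probe sets). The replicate numbers share only a number in the labels; deviations of same-numbered arrays correlated at 0.751, and the replicate block changed no call of a member (Nr4a2 1450749_a_at then had a log2 difference of -0.27 ± 0.50, SE, limma adjusted p = 0.843). The log2 difference turned sign with median centring for Nab1 1448781_at (0.0098), Nab2 (0.039) and Nr4a2 1450749_a_at (0.32), on a scale where the median of all tested probe sets was 0.66, and it was 0 for Egr2 1427682_a_at on the values as deposited. With an array left out it ranged from -0.10 to 0.74 for Egr1, from -1.63 to 2.00 and from -2.33 to 2.63 for Egr2 1427682_a_at and 1427683_at, from -1.34 to 0.14 for Nab2, from -0.99 to 0.37 for Nr4a1 and from -2.73 to 2.19 for Nr4a2; in these fits part of the replicate difference enters, and a lone array is taken to vary as the other genotype does. It ranged from -0.092 to 1.07 for Map2k2 and from -0.88 to 0.0030 for Dusp2. Both Nab1 probe sets kept their sign, at 0.36 to 0.45 and -0.71 to -0.42. Median centring, under which all tested probe sets had a median of 0.66, moved list medians. They were 0.36 for immediate-early genes, 1.01 for the ERK and SRF route and 0.82 for the calcium, MEF2 and CREB route. The last was -0.094 with the mean of a gene's probe sets, and that of Nr4a partners and targets was 0 with no intensity minimum. With an array left out the medians ranged from -0.69 to 0.34, -0.13 to 0.70, 0.16 to 0.35, -1.79 to -0.068 and -1.43 to 0.53, in the order of the lists above. The cause of these changes was not tested.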
